A study of Mus musculus with 58 samples.

Results

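The genes described here are 38 genes of PPAR-alpha signalling and fatty acid oxidation, measured by RNA-seq in mouse liver. They were taken from the deposited count table by gene symbol, and all 38 were found among its 24537 genes. The list was chosen with earlier results of these data known. The study set out to ask how interferon signalling bears on liver cancer in old animals, and it combined an adeno-associated virus (AAV8) carrying Myc with ruxolitinib, a drug that blocks the Janus kinases through which interferon receptors signal. The 58 libraries came from whole liver of male C57BL6/J mice; the labels name libraries and not animals, and a library is called a liver here. Every mouse received an AAV8 vector in which the TBG promoter, active in hepatocytes, drove either Myc, a growth-promoting transcription factor and oncogene, or mApple, a fluorescent protein that served as control. Ruxolitinib (45 mg/kg) or its vehicle was given by oral gavage 2 times daily for 30 days, with a break at weekends.

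The libraries fell into 6 groups. Old mice formed 4 of them, namely mApple with vehicle (8 livers), mApple with ruxolitinib (9), Myc with vehicle (11) and Myc with ruxolitinib (14). Young mice of 4 months formed the other two, mApple with vehicle (6) and Myc with ruxolitinib (10), so that in young animals Myc and ruxolitinib always went together and their separate parts cannot be told apart. The old livers were in 2 sequencing batches by the labels, at 25 months in the first and 24 months in the second, and the young livers were all in the second batch. Old groups were therefore compared with a batch term, and old with young within the second batch only. The tissue was whole liver, so fewer hepatocytes and less RNA per hepatocyte cannot be told apart in any value below.

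PPAR-alpha (Ppara) is a nuclear receptor of hepatocytes that binds fatty acids and, paired with a retinoid X receptor, switches on genes for fat burning when an animal fasts. Long-chain fatty acids are taken up and activated to acyl-CoA, carried into mitochondria on carnitine, and cut down by the beta-oxidation spiral, while peroxisomes shorten very long chains and microsomal Cyp4a enzymes oxidise fatty acids from the omega end. The acetyl-CoA that results feeds the citric acid cycle or ketone bodies, and carnitine acetyltransferase and the acyl-CoA thioesterases set free CoA along the way. PPAR-alpha complexes bind a direct repeat of AGGTCA half-sites with 1 base between them (DR1).

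The promoters of the members were read from RefSeq (GRCm38.p6), from 250 bases before to 50 bases after each start, to show where letters like the receptor's site occur in them. The table matched 30 of the 38 members, with 34 promoters. Both strands were searched for a DR1 of AGGTCA, any base and AGGTCA again, with at most 2 mismatches over its 12 defined bases. Such a match lay in 4 of the 34 member promoters (11.8%) and in 1268 of all 32851 promoters in the table (3.86%). The half-site AGGTCA, which overlaps the longer motif, lay in 26.5% of member promoters and 16.3% of all promoters. The E-box CACGTG, the palindrome known as the binding site of Myc and its partner Max, lay in 1 member promoter (2.94%), that of Acot4, and in 7.15% of all promoters. The matched stretches follow 5′ to 3′ on the motif's strand, with capitals where a letter equals the motif's, and positions counted from the start base as 0.
Fabp1, -67 to -55, strand opposite to the gene: AGGcCAtAGGTCA
Acot4, -13 to -1, strand opposite to the gene: cGGcCAaAGGTCA
Creb3l3, -209 to -197, strand of the gene: AGGggAgAGGTCA
Slc25a20, 6 to 18, strand of the gene: AGGTgAaAGGTCg
Fabp1 holds the closest match, with 1 mismatch, and Acot4 is a member whose level differed with age below, so the 250 bases before the start are shown for both on the gene's strand, with the match in capitals (Fabp1 promoter chr6:71199629-71199928, plus strand; Acot4 promoter chr12:84038129-84038428, plus strand).
Fabp1: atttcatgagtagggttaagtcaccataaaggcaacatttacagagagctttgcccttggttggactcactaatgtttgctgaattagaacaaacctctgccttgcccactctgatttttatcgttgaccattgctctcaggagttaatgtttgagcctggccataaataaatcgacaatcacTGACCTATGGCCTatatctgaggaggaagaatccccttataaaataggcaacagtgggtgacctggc
Acot4: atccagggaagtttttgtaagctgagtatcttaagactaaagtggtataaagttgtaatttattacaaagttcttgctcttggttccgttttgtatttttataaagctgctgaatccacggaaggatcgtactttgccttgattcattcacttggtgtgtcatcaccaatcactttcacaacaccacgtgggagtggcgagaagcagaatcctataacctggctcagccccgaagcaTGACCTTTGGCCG
In Acot4 the match ends at the base before the start, and the E-box is the cacgtg further upstream in the same stretch. These are matches of letters and no binding was measured.

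Depth ranged from 10.7 M to 41.0 M exon counts per library (median 14.6 M). Levels are given as CPM (exon counts per M exon counts of a library) with TMM scaling over all 58 libraries, and differences as log2 fold changes ± SE from edgeR's quasi-likelihood test, with Benjamini-Hochberg adjustment over all genes tested and a threshold of 0.05. Myc, the vector's cargo, was higher in the Myc livers in each comparison of the vectors, by 1.70 ± 0.39 in old vehicle livers, 2.54 ± 0.24 in old ruxolitinib livers and 2.27 ± 0.28 in young livers (edgeR adjusted p = 0.0049, 1.25e-06 and 6.98e-06). The library labelled Myc with vehicle 870 had a Myc level of 6.85 CPM and the library labelled mApple with vehicle 855 had 56.8 CPM, each inside the range of the opposite vector. Leaving out 870 changed no call among the members, and leaving out 855 lost the call on Acadm in old vehicle livers. Ifit1, an interferon-induced gene, was lower by 2.50 ± 0.40 with ruxolitinib in old mApple livers and by 2.39 in old Myc livers (edgeR adjusted p = 0.0115 and 0.00272). Socs2, a target of JAK-STAT signalling, differed by -1.95 and -2.47 (adjusted p = 0.0777 and 0.000141). Hepatocyte marker genes summed to between 68439 and 243620 CPM and were high in every library, whereas the adipocyte markers Adipoq, Plin1 and Lep were at 0 in 52, 55 and 57 of the libraries, and Cfd, the fourth of that list, was at 0 in 21 and reached at most 3.33 CPM. The hepatocyte sums here and below weigh albumin (Alb) the most. Its median level was 96061 CPM, beside a median of 147944 CPM for the sum.

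Set against transcript length, the members covered a wide span of levels. Fabp1, the fatty acid binding protein of liver cytosol, had a mean of 2435 CPM per kb, followed by the fatty acid transporter and very long-chain acyl-CoA synthetase Slc27a2 (473), the mitochondrial thiolase Acaa2 (424), the peroxisomal thiolase Acaa1b (331) and the long-chain acyl-CoA synthetase Acsl1 (262). The lowest were the thioesterases Acot3 (1.60) and Acot2 (2.48), the omega-hydroxylase Cyp4a31 (3.54) and the pyruvate dehydrogenase kinase Pdk4 (4.75). The receptor Ppara stood at 29.1 CPM per kb.

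The members differed strongly in how far livers of the same group and batch spread. The pooled SD within group and batch, on log2(CPM + 1), was 1.68 for Cyp4a14, 1.33 for Cyp4a10, 0.94 for Cyp4a31 and 0.81 for Acaa1b. Differences between batches are not part of it. It was 0.22 for Hadhb and 0.185 for Hadha, the subunits of the mitochondrial trifunctional protein that carries out the last 3 steps of long-chain beta-oxidation. Over the 58 livers Cyp4a14 ran over a 175.9-fold range and Hadha over a 2.52-fold range. By group, and again within batches, the median SD of the members was smallest in young Myc ruxolitinib livers (0.175) and largest in old Myc ruxolitinib livers (0.479).

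The omega-hydroxylases made up the loosest role group. Cyp4a14, Cyp4a10, Cyp4a31 and Cyp4a32 are neighbours on mouse chromosome 4 (mm10; Cyp4a14 at chr4:115486200-115496141, Cyp4a10 at chr4:115518287-115533649). Cyp4a14 ran from 3.56 to 197 CPM in old mApple vehicle livers (median 43.4), from 5.81 to 258 with ruxolitinib (76.1), from 4.39 to 362 in old Myc vehicle livers (58.4) and from 9.98 to 517 in old Myc ruxolitinib livers (106). In young livers it ran from 14.4 to 443 (median 23.1) with mApple and vehicle, where liver 1134 was the high one, and from 2.94 to 77.8 (24.4) with Myc and ruxolitinib. All 6 groups overlapped. The plot of the 4 Cyp4a genes shows the extreme livers. Old Myc ruxolitinib liver 1154 was the highest of all 58 for each of them, at 517 CPM for Cyp4a14, 504 for Cyp4a10, 68.0 for Cyp4a31 and 63.4 for Cyp4a32. That liver also had the highest Cpt1a of the series (703 CPM; the carnitine palmitoyltransferase that gates entry into mitochondria), and the lowest Fabp1 (83.7 CPM) and Bdh1 (33.1 CPM; the mitochondrial 3-hydroxybutyrate dehydrogenase). Cyp4a14 shares no 75-base window with another gene, whereas 19.1% of the windows of Cyp4a10, 13.9% of Cyp4a31 and 30.4% of Cyp4a32 are shared, so counts may be split among the latter.

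**Figure D1:**
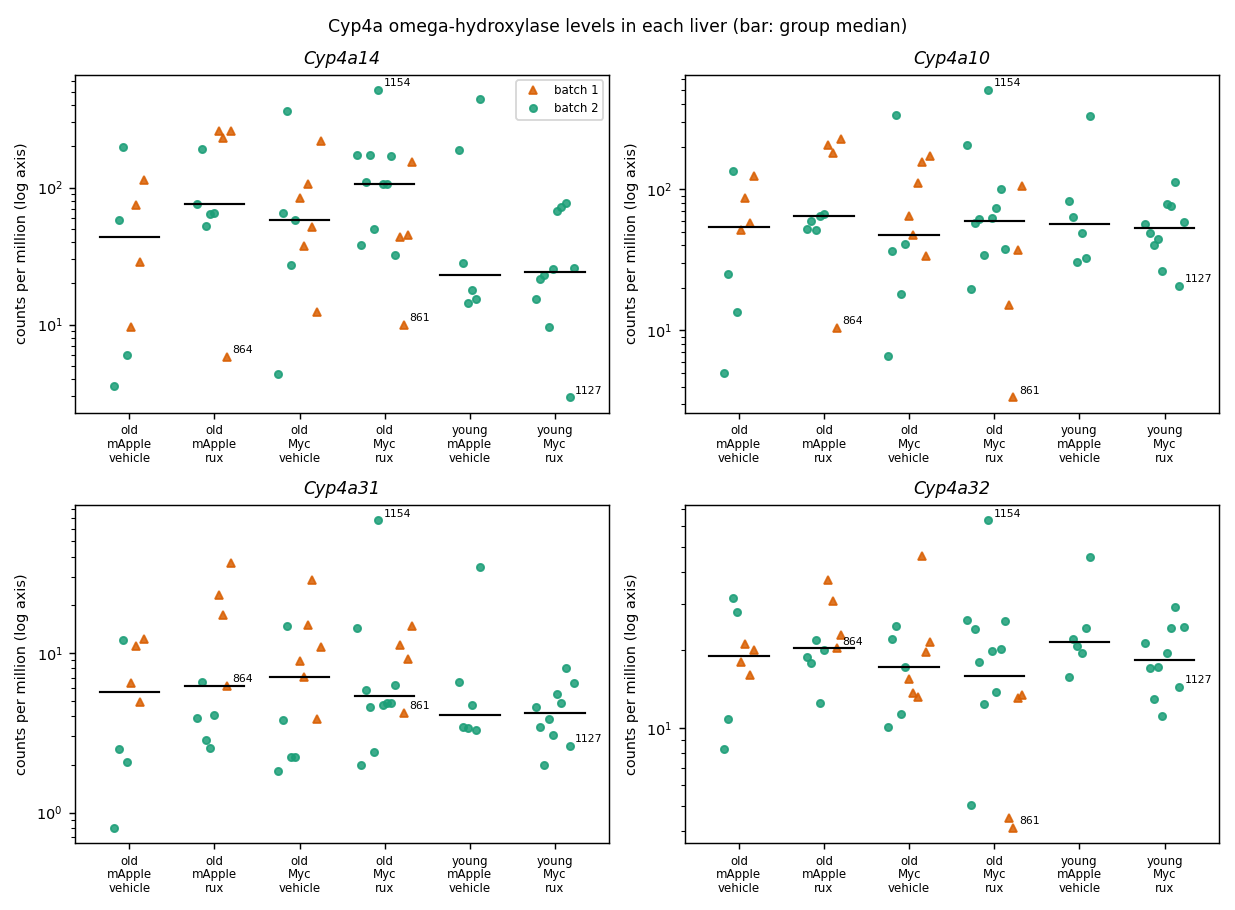
Level of the 4 Cyp4a omega-hydroxylases in each liver (CPM, log axis) by group; triangles are first-batch and circles second-batch livers, and bars are group medians. Liver 1154 is the highest point in each panel, and all groups overlap.

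Several livers stood apart over the whole list. Measured as the difference from the median of the other livers of the same group and batch, all 38 members were lower in old Myc ruxolitinib liver 861 (median -1.02 on log2(CPM + 1)) and 34 were lower in liver 860 of the same group (median -0.89). In old mApple ruxolitinib liver 864, 37 members were lower (median -0.77) and 28 were the lowest of its group. Marker genes of other cells were high in the same livers. The Kupffer cell and macrophage markers summed to 3778 CPM in 860 and 2478 CPM in 861. In the other first-batch livers of the group they summed to 1030 CPM (868) and 398 CPM (869), and in the 10 second-batch livers to 142 to 371 CPM. The neutrophil markers summed to 798 CPM in 864, the highest of all 58, and the bile duct markers to 886 CPM. Most of the latter sum was the single gene Spp1. Over the 58 libraries Spp1 reached 820 CPM, and no other gene of the bile duct list passed 52.4 CPM. The hepatocyte markers in 861 summed to 68439 CPM, the lowest of all. Whether these cells account for the low member levels was not tested. The ruxolitinib comparisons in old livers are touched by these libraries, and their counts over the list are given below without 860, 861, 864 and 865 as well. Liver 865, of the same group and batch as 864, was not low over the whole list (24 members lower and 14 higher, median -0.13). Those results are thus not the removal of the low livers alone. Other old livers lay low as well and stayed in. In Myc vehicle livers 1144, 859 and 866, 38, 36 and 26 members were lower (medians -0.28, -0.36 and -0.54). In Myc ruxolitinib liver 1150, 37 were lower (median -0.47). The livers left out came from the ruxolitinib groups alone, so low livers were not removed evenly from both sides.

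**Figure D2:**
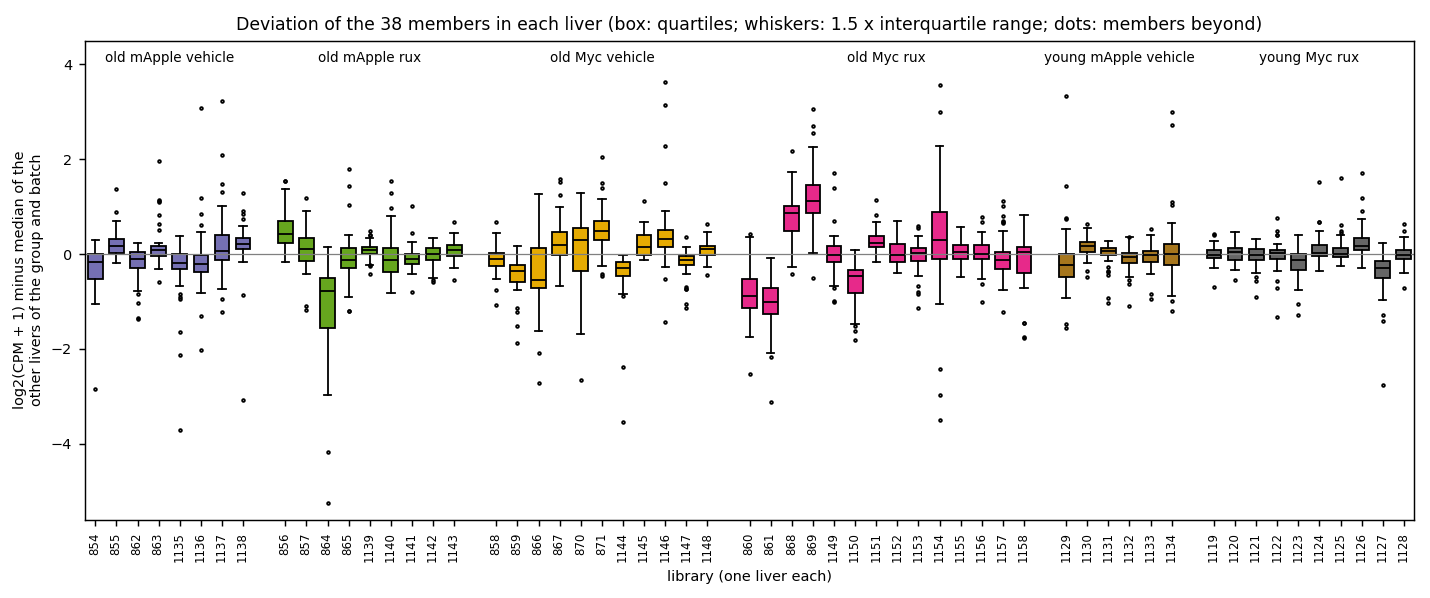
Difference of the 38 members in each library from the median of the other livers of the same group and batch (log2(CPM + 1) scale); boxes span the quartiles, whiskers reach 1.5 times the interquartile range. Livers 860, 861 and 864 lie low over most of the list, and 868 and 869, whose comparison livers include 860 and 861, lie high.

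The matrix of changes over all comparisons shows few calls in the old livers apart from Crat, and the most calls where old and young Myc ruxolitinib livers were set against each other. Its columns share libraries: each group enters more than 1 comparison, so neighbouring columns are not independent of each other.

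**Figure D3:**
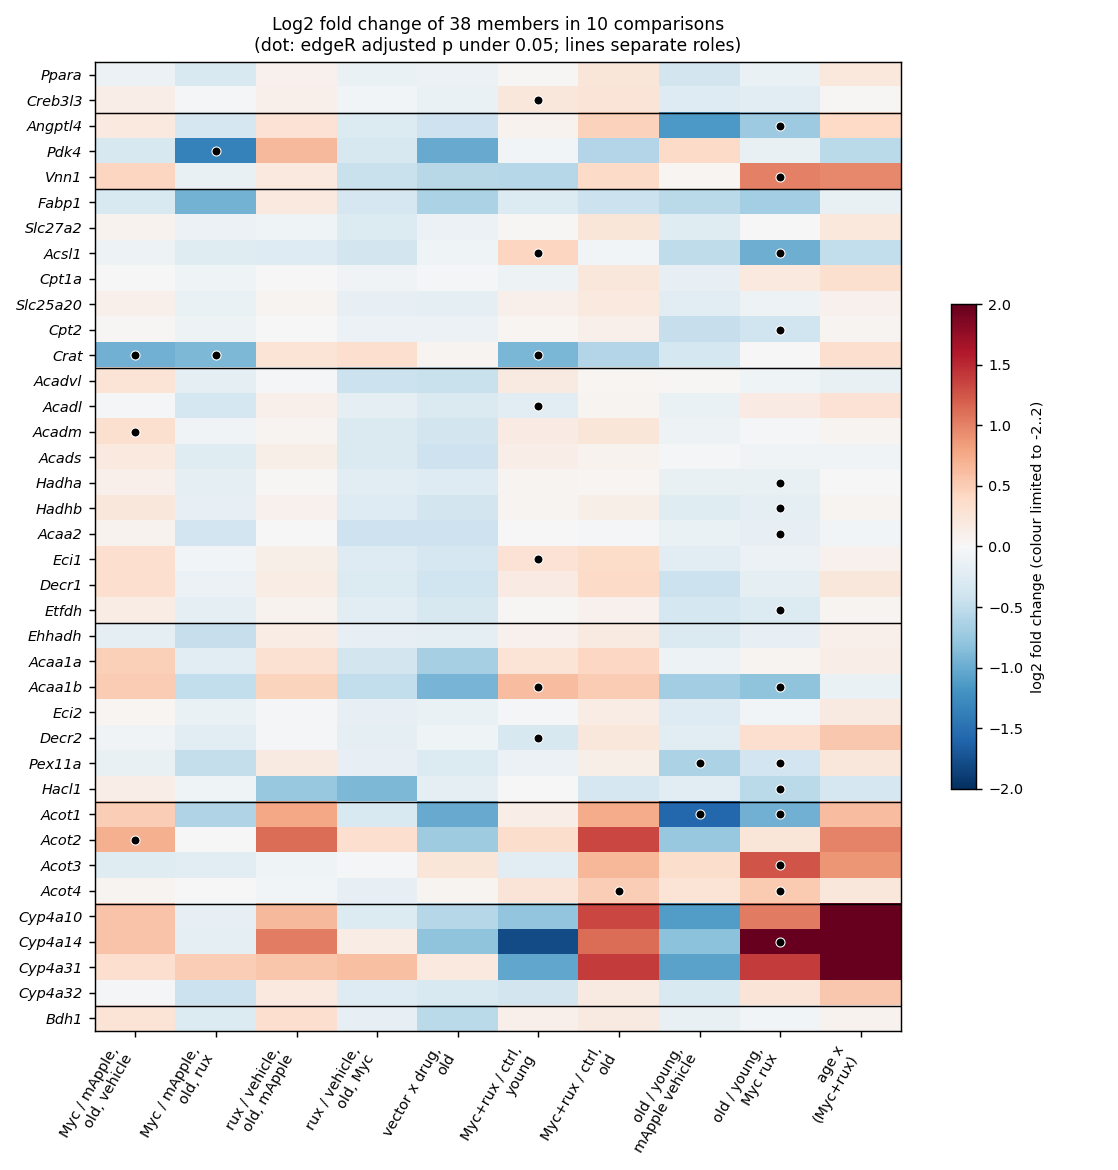
Log2 fold change of the 38 members (vertical axis, ordered by role) in the 10 comparisons (horizontal axis), with the colour limited to -2 and 2 and a black dot where the edgeR adjusted p is under 0.05. Crat is called lower with Myc in old vehicle and old ruxolitinib livers, and with Myc and ruxolitinib together in young livers. Between old and young Myc ruxolitinib livers 15 members are called.

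Carnitine acetyltransferase, Crat, fell with Myc in old vehicle livers, in old ruxolitinib livers and, together with ruxolitinib, in young livers. The enzyme transfers acetyl groups between CoA and carnitine and so buffers the acetyl-CoA that beta-oxidation makes (mm10 chr2:30400476-30415748, minus strand). In old vehicle livers it ran from 16.6 to 52.9 CPM in the 11 Myc livers (median 29.4) and from 30.5 to 106 CPM in the 8 mApple livers (median 50.1). Levels also differed between batches, and within the first batch all 6 Myc livers (28.1 to 52.9 CPM) lay below all 4 mApple livers (58.3 to 106 CPM), while in the second batch 4 of 5 did. The log2 fold change was -0.96 ± 0.16 (edgeR adjusted p = 0.000437). It was -1.14 (adjusted p = 0.019) in the first batch alone and -0.73 in the second, where it missed the threshold (adjusted p = 0.059).

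With ruxolitinib the separation of Crat between vectors was complete within each batch. In the first batch the 4 Myc livers held 44.4 to 66 CPM and the 4 mApple livers 73.9 to 99.4 CPM. In the second the 10 Myc livers held 18.4 to 37.9 CPM and the 5 mApple livers 50.2 to 61.8 CPM. The log2 fold change was -0.90 ± 0.13 (edgeR adjusted p = 0.000106), -1.04 in the second batch alone (adjusted p = 0.0015) and -0.66 in the first (adjusted p = 0.22, not past the threshold). Without livers 860, 861, 864 and 865 it was -1.01 (adjusted p = 0.00014). The change of Crat with Myc did not differ detectably between ruxolitinib and vehicle, with a difference of 0.05 ± 0.21 (adjusted p = 0.97). In young livers Crat ran from 19.8 to 35.7 CPM (median 25.6) with Myc and ruxolitinib and from 34.0 to 72.1 CPM (median 49.2) with mApple and vehicle, and 9 of the 10 lay below all 6. That gave -0.92 ± 0.14 (edgeR adjusted p = 0.000104). These 3 comparisons share no library, and none of the 3 calls on Crat was lost when any 1 library was left out. Old second-batch Myc ruxolitinib livers (18.4 to 37.9 CPM) against the 4 mApple vehicle livers of that batch (41.7, 41.9, 30.5 and 38.7 CPM) gave -0.59 ± 0.20 for Crat and missed the threshold with edgeR (adjusted p = 0.065). No 75-base window of Crat is shared with another gene, but 411 bases of its exons overlap Gm16323 and 59 overlap Dolpp1 on the opposite strand, and the counting command in the file header names no strand setting.

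**Figure D4:**
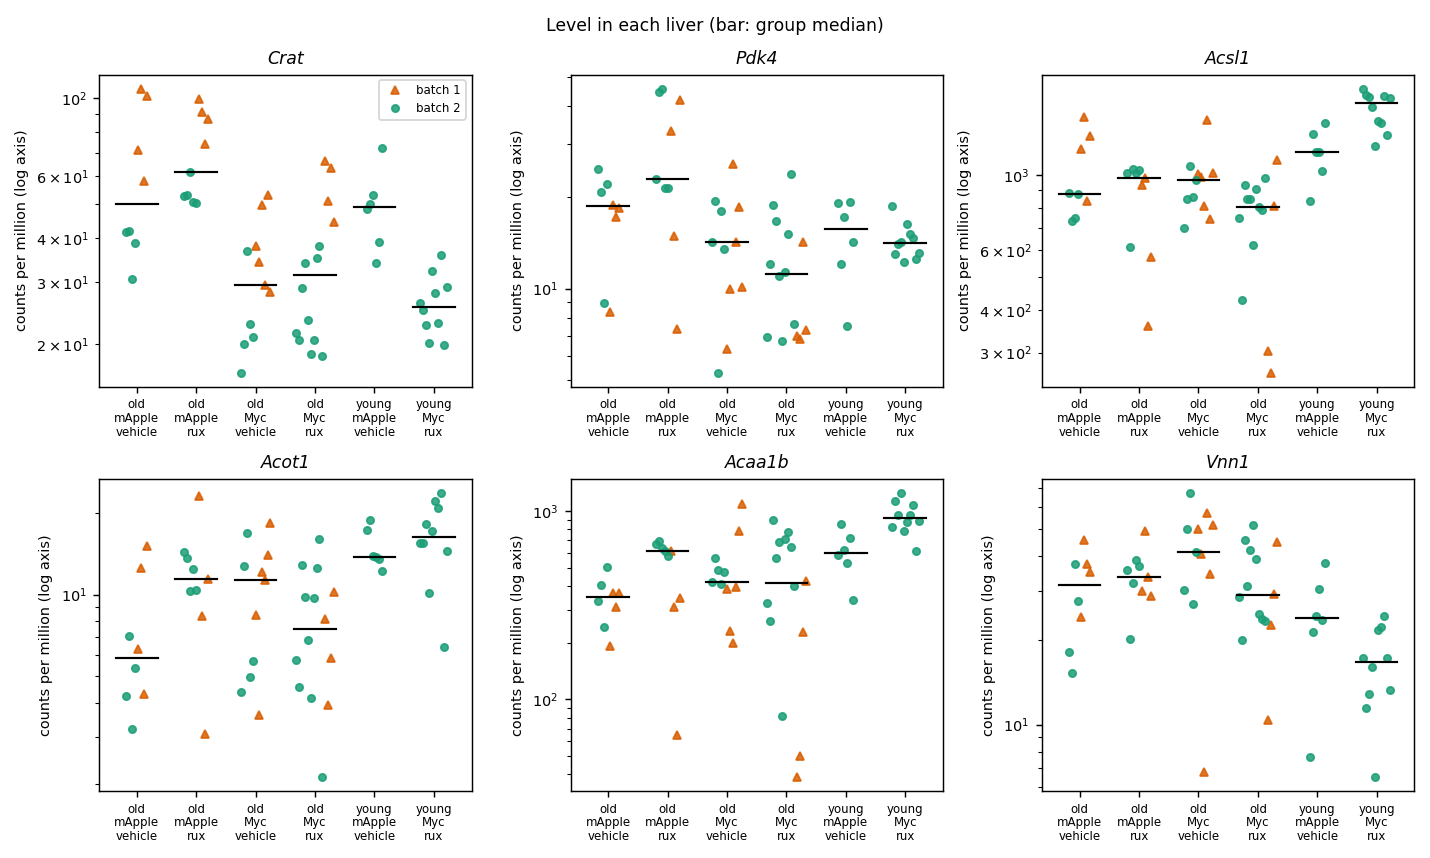
Level of Crat, Pdk4, Acsl1, Acot1, Acaa1b and Vnn1 in each liver (CPM, log axis) by group; triangles are first-batch and circles second-batch livers, bars are group medians. Most Myc livers lie below the mApple livers of the same batch for Crat, and Acsl1 in young Myc ruxolitinib livers (1216 to 1792 CPM) lies above all second-batch old livers of the same treatment (429 to 979 CPM).

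Myc against mApple in old vehicle livers called 3 of the 38 members, with 2 higher and 1 lower, where 18.8% of all 13547 genes tested were called (10.8% higher and 8.01% lower). Of those called genes 57.4% were higher, or 90% with library totals in place of TMM. The median log2 fold change was 0.11 for the members (0.05 without liver 1146) and -0.02 for all genes. Besides Crat, the medium-chain acyl-CoA dehydrogenase Acadm rose. It ran from 230 to 500 CPM (median 354) in Myc livers and from 236 to 339 CPM (median 273) in mApple livers, with 7 of 11 Myc livers above all 8 mApple livers, a log2 fold change of 0.31 ± 0.10 (edgeR adjusted p = 0.0398). The mitochondrial thioesterase Acot2, which splits long-chain acyl-CoA, rose from a low level. It ran from 3.25 to 9.97 CPM (median 4.66) in Myc livers and from 1.2 to 5.41 CPM (median 3.69) in mApple livers, and the groups overlapped except for 4 of 11 Myc livers above all 8. The difference was 0.72 ± 0.24 (edgeR adjusted p = 0.0442). Both of these calls were near the threshold. The call on Acadm was lost when any of 11 of the 19 libraries was left out, and that on Acot2 with any of 12. Of the 75-base windows of Acot2 21.2% are shared, mostly with Acot1 (20.5%).

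Of the 10 mitochondrial beta-oxidation members, 9 had a positive log2 fold change in that comparison (median 0.21), and Acadm alone was called. Ppara itself did not pass the test (-0.11 ± 0.13, adjusted p = 0.59), nor did Cpt1a (-0.01, adjusted p = 0.95), the peroxisomal bifunctional enzyme Ehhadh (-0.18 ± 0.13, adjusted p = 0.35), Pdk4 (-0.32 ± 0.26, adjusted p = 0.42) or Bdh1 (0.27 ± 0.12, adjusted p = 0.14). Scaling by library totals raised the median of all genes by 0.14 and called 10 members, 9 of them higher, and then all 10 mitochondrial members were positive. Marker genes of other cells also differed between these vectors. All 5 markers of dividing cells were called higher, with summed levels of 10.3 to 87.2 CPM in Myc livers and 3.62 to 16.1 CPM in mApple livers. Of the 10 hepatocyte markers 3 were called lower, with sums of 105743 to 175289 CPM against 161465 to 243620 CPM, and of the 6 sinusoidal endothelium markers 5 were called lower (144 to 282 CPM against 196 to 344 CPM). Their part in the member changes was not tested.

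Myc against mApple in old ruxolitinib livers called 2 members, both lower, where 14.4% of all 14010 genes were called (8.4% higher and 5.96% lower), 58.5% of these higher, or 87% with library totals. Besides Crat this was Pdk4, the kinase that shuts off pyruvate dehydrogenase and spares glucose when fat is burned (mm10 chr6:5483351-5496278, minus strand). Pdk4 ran from 6.71 to 23.9 CPM in 14 Myc livers (median 11.2) and from 7.34 to 45.7 CPM in 9 mApple livers (median 23.0). In the second batch 9 of 10 Myc livers lay below all 5 mApple livers, and in the first 3 of 4 lay below all 4. The log2 fold change was -1.34 ± 0.27 (edgeR adjusted p = 0.00188), with -1.27 (adjusted p = 0.012) in the second batch alone and -1.48 (adjusted p = 0.26) in the first. Without livers 860, 861, 864 and 865 it was -1.25 (adjusted p = 0.0031). In vehicle livers Pdk4 spanned 5.28 to 25.8 CPM with Myc and 8.37 to 24.9 CPM with mApple. The difference between the vector effects under ruxolitinib and vehicle was -1.01 ± 0.40 for Pdk4 and did not pass the test (edgeR adjusted p = 0.82). The call on Pdk4 under ruxolitinib is thus not shown to be particular to the drug.

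In the same ruxolitinib comparison 37 of the 38 members had a negative log2 fold change (median -0.19, against 0.01 for all genes), and the 10 mitochondrial members were all negative (median -0.18) with none called. This direction depended on the first batch. It held for all 38 members in the first batch alone (median -0.53), for 21 in the second alone (median -0.03), and for 26 without livers 860, 861, 864 and 865 (median -0.09). Without 861 alone the median was -0.12 and without 869 alone it was -0.29. With library totals 30 members were negative. Fabp1 ran from 83.7 to 1490 CPM (median 889) in Myc and from 242 to 2280 CPM (median 1508) in mApple livers and missed the threshold (-0.94 ± 0.34, edgeR adjusted p = 0.065). The acyl-CoA dehydrogenase Acadl (-0.35, adjusted p = 0.072) and Acaa2 (-0.39, adjusted p = 0.063) missed it as well. All 5 dividing-cell markers were called higher here too (13.6 to 229 CPM in Myc against 4.17 to 44.5 CPM in mApple livers), and 2 of 10 hepatocyte markers lower (68439 to 200106 against 109433 to 211856 CPM). The 8 Kupffer cell and macrophage markers were all positive (median 0.78, none called; 142 to 3778 against 145 to 899 CPM). Of the sinusoidal endothelium markers 2 of 6 were called lower (73.7 to 359 against 162 to 406 CPM), and of the bile duct markers 1 of 5 (48.9 to 319.8 against 76.7 to 886 CPM, the 886 CPM mostly from Spp1). Their part in the member changes was not tested.

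Ruxolitinib called none of the 38 members in old livers with either vector. Few genes passed at all: 0.391% of 13554 with mApple (0.00738% higher and 0.384% lower) and 0.545% of 13749 with Myc (0.0436% higher and 0.502% lower). At an unadjusted edgeR p under 0.05 there were 7 members with mApple, where 1327 of the 13554 genes did so, and 6 with Myc, where 1925 of the 13749 did. DESeq2 and limma voom called 0 members with mApple and 1 with Myc, Hacl1, the peroxisomal lyase of branched-chain fatty acid breakdown.

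With the mApple vector, Acot2 and Acot1, the mitochondrial and cytosolic long-chain acyl-CoA thioesterases, differed by 1.11 ± 0.36 and 0.78 ± 0.34 on ruxolitinib against vehicle (edgeR adjusted p = 0.31 and 0.46). Pdk4 differed by 0.66 ± 0.31 (adjusted p = 0.5), and Ppara by 0.08 ± 0.16 (adjusted p = 0.9). Of the members 30 were positive (median 0.11). The split changed with the batch: 14 were positive in the first batch alone (median -0.07) and 35 in the second (median 0.26). Without livers 864 and 865, 37 were positive (median 0.24) and the 10 mitochondrial members were all positive, from 0.10 to 0.26, and without liver 1136 alone the median was 0.06. With all livers of a batch, the 10 mitochondrial members ran from -0.28 to -0.01 in the first and from 0.17 to 0.35 in the second.

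With the Myc vector the batches again differed in direction. Over both batches 34 members were negative on ruxolitinib (median -0.24, or -0.13 without liver 860 and -0.12 without liver 861), and all 10 mitochondrial members were, from -0.43 to -0.20. In the first batch alone 36 were negative (median -0.65), and in the second 27 were positive (median 0.10). Without livers 860 and 861, 19 members were positive and 19 negative (median 0.01). The Kupffer cell and macrophage markers were all positive in this comparison (8 of 8, median 0.67, none called), with sums of 398 to 3778 CPM in the 4 first-batch ruxolitinib livers and 195 to 482 CPM in the 6 first-batch vehicle livers. The second batch went the other way. Its sums were 142 to 371 CPM (median 223) in 10 ruxolitinib livers and 281 to 484 CPM (median 387) in 5 vehicle livers. In the first batch Hacl1 ran from 30.7 to 184 CPM with ruxolitinib and from 213 to 363 CPM with vehicle, with no overlap, and in the second batch 7 of 10 ruxolitinib livers lay below all 5 vehicle livers. The log2 fold change of Hacl1 was -0.90 ± 0.24 and did not pass with edgeR (adjusted p = 0.11), while DESeq2 gave -0.90 (adjusted p = 0.014) and limma voom -0.63 (adjusted p = 0.031). Without livers 860 and 861 edgeR gave -0.56 for Hacl1 (adjusted p = 0.071). Of its 75-base windows 54.2% are shared with the overlapping model Gm49387, so its counts are uncertain.

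The test of whether ruxolitinib acted differently with Myc than with mApple called 0 of the 38 members and 0% of 14046 genes. At an unadjusted edgeR p under 0.05 there were 5 members and 735 genes, and DESeq2 and limma voom called 0 members. The 10 mitochondrial members were all negative (-0.44 to -0.25), also in each batch alone and without the 4 libraries named, but none was called.

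In young livers Myc with ruxolitinib against mApple with vehicle called 7 members, 4 higher and 3 lower, where 27.5% of 12808 genes tested were called (13.5% higher and 14% lower), 49% of these higher, or 84% with library totals. The median was 0.04 for the members (0.02 without liver 1129, 0.06 without liver 1123) and -0.01 for all genes. Acsl1, which activates long-chain fatty acids at the mitochondrial and reticular surface (mm10 chr8:46471037-46536051, plus strand), rose. It ran from 1216 to 1792 CPM (median 1632) in the 10 Myc ruxolitinib livers and from 838 to 1426 CPM (median 1168) in the 6 mApple vehicle livers, and 7 of 10 lay above all 6. The difference for Acsl1 was 0.43 ± 0.11 (edgeR adjusted p = 0.00687). Acaa1b, the peroxisomal thiolase (mm10 chr9:119148043-119157093, minus strand), rose by 0.62 ± 0.16 (adjusted p = 0.00831), from 335 to 851 CPM with mApple and vehicle (median 602) to 614 to 1248 CPM with Myc and ruxolitinib (median 919), with 7 of 10 above all 6. Of the windows of Acaa1b 28.5% are shared with Acaa1a.

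Creb3l3, a liver transcription factor of fasting that works with PPAR-alpha, rose by 0.23 ± 0.08 (edgeR adjusted p = 0.034; 245 to 272 CPM against 172 to 252 CPM). The mitochondrial enoyl-CoA isomerase Eci1 rose by 0.29 ± 0.10 (adjusted p = 0.0343; 72.2 to 105 CPM against 48.2 to 80.3 CPM), and the groups overlapped in part: 5 of 10 livers lay above all 6. Each of these 2 calls was lost when any of 5 of the 16 libraries was left out. Beside Crat, the peroxisomal dienoyl-CoA reductase Decr2 fell, from 196 to 242 CPM (median 227) to 157 to 202 CPM (median 182), with 8 of 10 below all 6 and a difference of -0.32 ± 0.07 (edgeR adjusted p = 0.00235). Acadl fell as well, from 177 to 209 CPM (median 186) to 137 to 185 CPM (median 159), by 0.23 on the log2 scale (SE 0.07, adjusted p = 0.0137). With library totals, which moved the median of all genes by 0.18, 18 members were called and 17 of them higher, while Decr2 (-0.14, adjusted p = 0.14) and Acadl (-0.05, adjusted p = 0.54) were not. Crat was called lower under every scaling and tool run for this comparison.

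Cyp4a14 in the young livers had the largest difference in size, -1.78 ± 0.71, and did not pass (edgeR adjusted p = 0.071). The mApple vehicle livers 1134 (443 CPM) and 1129 (189 CPM) were high, and the others of that group held 14.4 to 28.3 CPM. With limma voom, which gives such livers less weight, the sign was the opposite (0.23, adjusted p = 0.8). Ppara differed by 0.02 ± 0.07, with 223 to 276 CPM against 212 to 266 CPM (adjusted p = 0.85), Cpt1a by -0.10 ± 0.07 (adjusted p = 0.31) and Ehhadh by 0.08 ± 0.08 (adjusted p = 0.5). In these livers 7 of the 10 hepatocyte markers were called lower. Their sums, which weigh Alb the most, did not overlap, with 98531 to 129508 CPM against 148692 to 233161 CPM. Their part in the member changes was not tested.

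The same combined contrast in old second-batch livers called 1 member, higher, where 10.9% of 13761 genes were called (6.52% higher and 4.35% lower), 60% of these higher, or 86.5% with library totals. This was Acot4, a peroxisomal thioesterase. It stood at 12.5, 15.4, 16.4 and 18.2 CPM in the 4 mApple vehicle livers and ran from 17.2 to 28.5 CPM (median 22.6) in the 10 Myc ruxolitinib livers, 7 of which lay above all 4. The difference was 0.49 ± 0.15 (edgeR adjusted p = 0.0468), and the call was lost when any of 11 of the 14 libraries was left out. Acot2 differed by 1.34 ± 0.44 (adjusted p = 0.061; 1.26, 4.17, 1.2 and 3.24 CPM in the mApple vehicle livers). Of the cell markers 3 of 5 of dividing cells were called higher (13.6 to 121 CPM against 3.62 to 16.1 CPM) and 4 of 6 of sinusoidal endothelium lower (73.7 to 214 CPM against 196 to 271 CPM), and the 8 of Kupffer cells and macrophages were all negative (median -0.64, none called; 142 to 371 CPM against 210 to 627 CPM). Their part in the member values was not tested. Acsl1, called in young livers, differed by -0.06 ± 0.17 in old ones (adjusted p = 0.85). The difference between the old and the young contrast was -0.49 ± 0.20 for Acsl1 and 2.93 ± 1.25 for Cyp4a14, and neither passed the test (edgeR adjusted p = 0.25 and 0.29). Over the list 0 members passed that test of a difference, where 0.287% of 13609 genes did (0.103% higher and 0.184% lower), and 7 members had an unadjusted p under 0.05, as did 1914 of the 13609 genes. DESeq2 called 0 members and limma voom 1, Acsl1.

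Old against young mApple vehicle livers called 2 members, both lower with age, where 1.1% of 13155 genes were called (0.859% higher and 0.243% lower). Acot1, the cytosolic thioesterase that is a long-known target of PPAR-alpha agonists (mm10 chr12:84009502-84017669, plus strand), stood at 4.25, 7.06, 3.20 and 5.39 CPM in the 4 old livers and ran from 12.2 to 18.8 CPM (median 13.8) in the 6 young livers. The groups did not overlap, and the log2 fold change was -1.58 ± 0.22 (edgeR adjusted p = 0.00889). It was kept without any 1 of the 10 libraries (-1.80 to -1.43). Pex11a, which promotes peroxisome division, stood at 24.2, 22.5, 22.5 and 20.7 CPM in old and ran from 25.6 to 39.9 CPM (median 36.2) in young livers, again with no overlap. It fell by 0.63 on the log2 scale (SE 0.13, edgeR adjusted p = 0.0373), and that call was lost when any of 8 of the 10 libraries was left out.

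Over the whole list 33 of 38 members were negative with age in these livers (median -0.25, against 0.00 for all genes), 32 with library totals and 30 with 1 fit of all 58 libraries (median -0.14). Without old liver 1136 the median was -0.16. Cpt2, the inner-membrane carnitine palmitoyltransferase (-0.47, adjusted p = 0.087), Acsl1 (-0.51 ± 0.15, adjusted p = 0.12) and Ppara (-0.37 ± 0.12, adjusted p = 0.14) did not pass. Without young liver 1129, 5 members were called: Acot1, Pex11a, Acsl1, Cpt2 and the electron-transfer flavoprotein dehydrogenase Etfdh. Calls over all genes, 145 with every library, ran from 22 to 502 when 1 library was left out. Of the 6 neutrophil markers 2 were tested, S100a8 and S100a9, and both were called higher with age (2.67 and 2.26). Of the 3 T and NK cell markers tested 1 was called higher. The 8 Kupffer cell and macrophage markers were all positive (median 0.88) with none called. So were the 4 B cell markers (median 1.07) and the 4 bile duct markers tested (median 0.48). The 4 dividing-cell markers tested were all negative (median -0.53), with none called. Their part in the member changes was not tested.

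**Figure D5:**
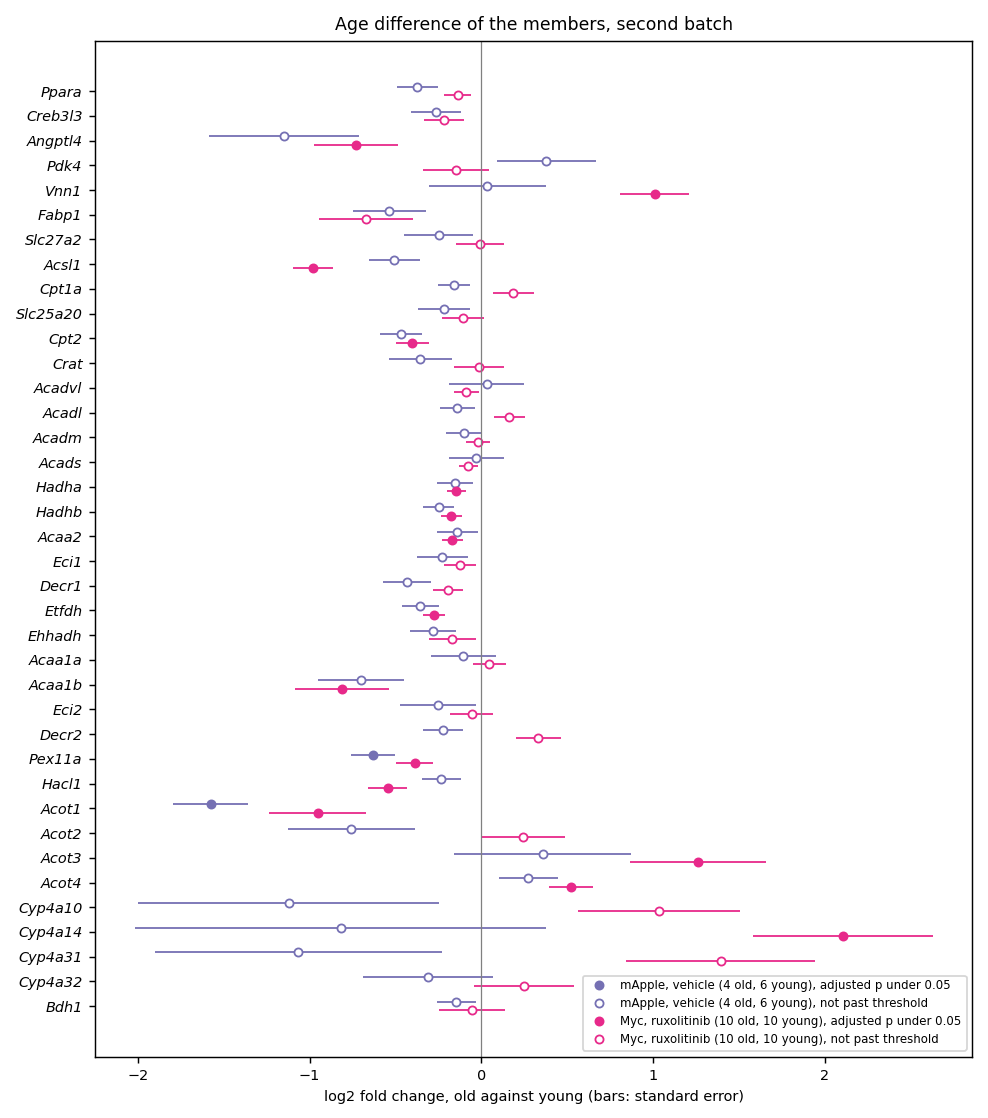
Log2 fold change ± SE of the 38 members between old and young second-batch livers, in mApple vehicle livers (4 old, 6 young) and in Myc ruxolitinib livers (10 old, 10 young); filled points have an edgeR adjusted p under 0.05. Acot1 and Pex11a are filled and negative in both, and Cyp4a14 is filled and positive in Myc ruxolitinib livers.

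Old against young Myc ruxolitinib livers called 15 of the 38 members, 4 higher and 11 lower with age, a share of 39.5% where 33.7% of 12760 genes tested were called (18.1% higher and 15.6% lower). The share over the list was thus near the background, and the description below is of single genes. Myc itself was lower in the old livers, at 24.4 to 45.6 CPM (median 31.0) against 36.1 to 61.5 CPM (median 50.9), a difference of -0.70 ± 0.10 (edgeR adjusted p = 3.33e-05). Of the sinusoidal endothelium markers 4 of 6 were called lower, with sums of 73.7 to 214 CPM against 145 to 266 CPM. Of the 10 hepatocyte markers 3 were called higher and 2 lower (109444 to 175015 CPM against 98531 to 129508 CPM). Called higher were also 2 of 5 dividing-cell markers (13.6 to 121 CPM against 8.83 to 45.5 CPM), both B cell markers that were tested (1.42 to 9.06 CPM against 1.15 to 3.49 CPM for the list) and the 1 neutrophil marker tested (1.62 to 12.4 CPM against 0.536 to 2.01 CPM). Among the Kupffer cell and macrophage markers 1 of 8 and among the bile duct markers 1 of 4 tested were called higher, and 1 of 6 stellate cell and fibroblast markers lower. Their part in the member changes was not tested.

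Among the genes of uptake and activation Acsl1 fell the most. It ran from 429 to 979 CPM (median 828) in the 10 old livers and from 1216 to 1792 CPM (median 1632) in the 10 young, so that no liver overlapped, and the difference was -0.98 ± 0.12 (edgeR adjusted p = 3.86e-06). Cpt2 fell from 116 to 160 CPM (median 152) to 81.6 to 174 CPM (median 109), by 0.40 on the log2 scale (SE 0.10, adjusted p = 0.00304). Fabp1 differed by -0.67 ± 0.27 and did not pass (adjusted p = 0.063), nor did Cpt1a (0.19 ± 0.12, adjusted p = 0.24). Crat differed by -0.01 ± 0.15 (adjusted p = 0.95).

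Of the mitochondrial members 4 of 10 fell, each by little. Etfdh, which passes electrons from beta-oxidation to ubiquinone, fell by 0.28 (SE 0.06, edgeR adjusted p = 0.00232), with 177 to 282 CPM in old livers and 258 to 299.5 CPM in young. Hadha, Hadhb and Acaa2 fell by 0.14, 0.17 and 0.17 (adjusted p = 0.0428, 0.0376 and 0.0366). Each of these last 3 calls was lost without a low-count filter, and when any of 11, 8 and 9 of the 20 libraries was left out. Of the 75-base windows of Hadhb 57.2% are shared with Gm13910, so its counts are uncertain.

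In the peroxisome 3 members fell. Hacl1 fell by 0.55 on the log2 scale (SE 0.12, edgeR adjusted p = 0.00119), from 255 to 434 CPM (median 349) in young to 163 to 320 CPM (median 230) in old livers. Acaa1b fell by 0.81 (SE 0.27, adjusted p = 0.0256), from 614 to 1248 CPM (median 919) to 81.3 to 900 CPM (median 602), with 5 of 10 old livers below all 10 young. Pex11a fell by 0.39 (SE 0.11, adjusted p = 0.00938), from 21.0 to 38.03 CPM to 17.9 to 32.0 CPM. Ehhadh differed by -0.17 ± 0.14 and did not pass (adjusted p = 0.36).

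The thioesterases, which lie side by side on mouse chromosome 12 in the order Acot2, Acot1, Acot4 and Acot3 (mm10, from 83987861 to 84060400), moved in opposite directions. Acot1 fell by 0.95 (SE 0.28, edgeR adjusted p = 0.0123), from 6.42 to 23.6 CPM (median 16.3) in young to 2.13 to 16.0 CPM (median 8.27) in old livers. Acot4 rose by 0.52 ± 0.13 (adjusted p = 0.00376), from 7.97 to 19.2 CPM (median 15.7) to 17.2 to 28.5 CPM (median 22.6), and 7 of 10 old livers lay above all 10 young. Acot3, a peroxisomal enzyme of low level, rose by 1.26 ± 0.40 (adjusted p = 0.018), from 0.155 to 2.44 CPM (median 1.16) to 0.502 to 6.95 CPM (median 2.88). Shared windows make up 26.4% of Acot1, 16.5% of Acot3 and 1.8% of Acot4, those of Acot1 mostly with Acot2 (19.7%) and those of Acot3 mostly with the model Gm49366 (10.6%). The exons of Acot4 overlap the opposite-strand 4732463B04Rik by 615 bases, and those of Acot3 overlap Gm49366 on the same strand by 396 bases.

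Of the fasting-responsive targets, Vnn1, the pantetheinase that recycles vitamin B5 from CoA breakdown (mm10 chr10:23894688-23905343, plus strand), rose by 1.01 ± 0.20 (edgeR adjusted p = 0.00073). It ran from 19.97 to 51.6 CPM (median 29.8) in old and from 6.51 to 24.5 CPM (median 16.7) in young livers, with 7 of 10 old livers above all 10 young. Angptl4, the secreted inhibitor of lipoprotein lipase, fell by 0.73 (SE 0.24, adjusted p = 0.0248), from 42.3 to 96.9 CPM (median 63.6) to 16.3 to 88.4 CPM (median 39.9). Pdk4 differed by -0.15 ± 0.19 and did not pass (adjusted p = 0.58). Cyp4a14 rose by 2.11 ± 0.52 (adjusted p = 0.00412), from 2.94 to 77.8 CPM (median 24.4) to 32.2 to 517 CPM (median 108), with 7 of 10 old livers above all 10 young, and its log2 fold change was 1.64 to 2.32 when any 1 library was left out. Cyp4a10 (1.04 ± 0.47, adjusted p = 0.094) and Cyp4a31 (1.40 ± 0.55, adjusted p = 0.054) did not pass. Ppara differed by -0.14 ± 0.08 (adjusted p = 0.19) and Bdh1 by -0.06 ± 0.19 (adjusted p = 0.85). In mApple vehicle livers the 4 omega-hydroxylases, Cyp4a14 among them, all had a negative log2 fold change with age (-1.12 to -0.31). None of them was called there by edgeR.

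Acot1 and Pex11a were called lower in old livers in both age comparisons, which share no library. The age effect differed between the treatments by 0.61 ± 0.46 for Acot1, which did not pass the test (edgeR adjusted p = 0.58). Acsl1 passed in Myc ruxolitinib livers, and in mApple vehicle livers it gave -0.51 ± 0.15 (882, 731, 745 and 876 CPM in the 4 old livers and 838 to 1426 CPM in the 6 young), which DESeq2 and limma voom called and edgeR did not. The difference between these age effects did not pass for Acsl1 (-0.49 ± 0.20, edgeR adjusted p = 0.25).

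The remaining genes of the pathway were followed through 5 further lists. Their counts stand against these shares of all genes. With Myc in old vehicle livers 10.8% were higher and 8.01% lower, and in old ruxolitinib livers 8.4% and 5.96%. With Myc and ruxolitinib together in young livers the shares were 13.5% and 14%. With age in Myc ruxolitinib livers they were 18.1% and 15.6%. Of the other mitochondrial beta-oxidation genes, 5 of 32 tested rose and 0 fell with Myc in old vehicle livers, led by the acyl-CoA dehydrogenase family members Acad12 (0.84 ± 0.14, edgeR adjusted p = 0.00036), Acad10 (0.44) and Acad9 (0.43) and the methylmalonyl-CoA epimerase Mcee (0.39). In young livers 5 rose and 3 fell, Mcee (0.48) and Acad10 (0.52) among the higher and the acyl-CoA binding protein Dbi (-0.34) among the lower. In old ruxolitinib livers 0 rose and 2 fell with Myc, Dbi (-0.63) and the acyl-CoA synthetase Acsl5 (-0.52). With age in Myc ruxolitinib livers 4 rose and 3 fell, among them the branched-chain dehydrogenase Acadsb (-0.40) and the enoyl-CoA hydratase Echs1 (0.30).

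Of the other peroxisomal genes, Phyh, the phytanoyl-CoA hydroxylase of branched-chain fat breakdown, fell with Myc in old vehicle livers (-0.44) and old ruxolitinib livers (-0.52). It also fell with Myc and ruxolitinib together in young livers (-0.59). Phyh passed the edgeR threshold in all 3 comparisons. Counts for the list were 1 higher and 1 lower of 30 in the first, 1 and 2 in the second, and 2 and 5 in the third. The CoA diphosphatase Nudt7 was lower with ruxolitinib in old Myc livers (-1.29 ± 0.26, edgeR adjusted p = 0.012), the only call of that comparison among these lists. It was also lower in young Myc ruxolitinib livers (-0.64), and with age in Myc ruxolitinib livers (-1.20), where 6 peroxisomal genes rose and 4 fell. Among other PPAR-alpha targets the hormone gene Fgf21 fell with Myc in old vehicle livers (-1.15 ± 0.38, adjusted p = 0.037) and old ruxolitinib livers (-1.43 ± 0.45, adjusted p = 0.0358). Its level was low, with medians of 1.16 and 0.435 CPM in mApple and Myc vehicle livers and 2.26 and 0.641 CPM in mApple and Myc ruxolitinib livers. Counts for that list were 2 higher and 2 lower of 28 with vehicle, 2 and 3 of 29 with ruxolitinib, and 4 and 3 of 28 in young livers. With age 5 of 27 rose and 10 fell in Myc ruxolitinib livers. In mApple vehicle livers the male-biased hydroxylases Cyp4a12a and Cyp4a12b fell with age (-1.44 and -1.36).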

How the data were processed

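Poly(A) RNA from whole liver was sequenced as 2 x 75 base pairs, per the labels' protocols. STAR and HOMER with GRCm38/mm10 are named in the submitters' processing notes, with no version stated. The values the authors deposited are expected counts (not all whole) that HOMER summed over the exons of each gene without normalization or a strand setting, per the file headers. Of these, 29.9% were not whole, and all were rounded. No column belonged to a sample outside the labels. No pair of libraries of the same group and batch held identical values, and other pairs were not checked.

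Genes passing filterByExpr (minimum count 10) were tested with edgeR 4.0.16 (TMM, quasi-likelihood) in R 4.3.3, with a batch term where both batches entered and with Benjamini-Hochberg adjustment over all genes tested. Levels are CPM with a pseudocount of 1 on the log2 scale. The procedure was tested on simulated data. Alternatives used DESeq2 1.42.0, limma 3.58.1 (voom with quality weights), other scaling, no filter, 1 fit of all libraries, each batch alone, and libraries left out. Members were named with values where called; Ppara, Cpt1a, Acadm, Ehhadh, Cyp4a14, Pdk4, Acot1 and Bdh1, and members sharing a role with a called one, could be named throughout, and from each other list up to 4 called genes besides Hadh and Fgf21. Some genes the rule covers are not reported here. Other genes and libraries singled out, and the alternatives without 860, 861, 864 and 865 or without 870, were chosen after values were seen. The members and lists were chosen with earlier results of these data known. The labels name libraries and not animals, so p-values measure the spread between these libraries, which may be partly technical.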

Additional observations from a re-analysis of the deposited data

Results flagged for a closer look

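Levels were checked for single livers far from the rest of their group, in groups of 4 to 10 livers, which chance alone does in about 1 in 20 groups. The old Myc vehicle (11 livers) and old Myc ruxolitinib (14 livers) groups were therefore not checked. Of 152 checks 28 found one. The checks of different genes use the same livers and are not independent of each other. Old mApple ruxolitinib liver 864 was the lowest of its 9 for Fabp1 (242 CPM), Cpt1a (222), Decr1 (63.0), Ehhadh (104), Acaa1b (64.7), Decr2 (107), Acot4 (2.22), Cyp4a10 (10.4), Cyp4a14 (5.81) and Bdh1 (115). It was also the liver with the highest neutrophil markers. Young mApple vehicle liver 1129 was the lowest of its 6 for Angptl4 (21.9 CPM), Vnn1 (7.69), Slc27a2 (817), Etfdh (229), Eci2 (71.2) and Bdh1 (126).

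Young mApple vehicle liver 1134 was the lowest for Acadvl (148 CPM), Acads (78.9) and Acaa1a (74.4) and the highest for Cyp4a31 (34.5). Young Myc ruxolitinib liver 1127 was the lowest of its 10 for Cpt2 (116 CPM), Hadhb (131), Pex11a (21.0) and Acot4 (7.97), liver 1123 for Slc27a2 (953) and Etfdh (258), and liver 1128 was the highest for Ppara (276). Old mApple vehicle liver 1138 was the highest of its 8 for Acaa2 (732 CPM).

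Fabp2, an intestinal-type fatty acid binding protein, differed between ages in its response to Myc with ruxolitinib, by 0.94 ± 0.16 (edgeR adjusted p = 0.014). It was lower with Myc and ruxolitinib in young livers (-0.47; 23.1 to 31.8 CPM against 34.5 to 45.5 CPM, no overlap) and higher in old second-batch livers (0.47; 27.7 to 48.7 CPM against 22.3 to 29.0 CPM).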

How the results depend on the processing

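Counts of called members moved by more than 1.5 times in these settings. With DESeq2 they were 5 for Myc against mApple under ruxolitinib, 1 for ruxolitinib with Myc, 4 for the combined contrast in old livers and 7 for age in mApple vehicle livers. With limma voom they were 5 for Myc under vehicle, 1 for ruxolitinib with Myc, 11 for the old combined contrast, 14 for age in mApple vehicle livers and 1 in the test of old against young contrast. With library totals they were 10 for Myc under vehicle, 18 for the young contrast, 6 for the old one and 1 for age in mApple vehicle livers. With 1 fit of all 58 libraries they were 4 for Myc under ruxolitinib, 1 for ruxolitinib with Myc, 1 for the young contrast, 3 for the old one and 0 for age in mApple vehicle livers. For Myc under vehicle the count was 1 without a batch term, 1 in the first batch alone and 0 in the second. For Myc under ruxolitinib it was 0 in the first batch, 4 in the second and 4 without livers 860, 861, 864 and 865. The causes were not tested. With 1 library left out the counts ran from 1 to 6 for Myc under vehicle (6 without 866), 2 to 6 under ruxolitinib (6 without 869), 5 to 8 for the young contrast, 0 to 3 for the old one, 1 to 5 and 12 to 20 for age in mApple vehicle and Myc ruxolitinib livers (20 without 1154), and 0 to 0 for ruxolitinib with either vector and both tests of a difference. No call reversed. No paired analysis was possible because no replicate number is shared between groups. Depth bounds the low genes, of which Acot3 reached 0.155 CPM.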

Other observations

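Of the receptor partners and coregulators of PPAR-alpha, 5 of 20 were called with Myc in old vehicle livers (18.8% of all genes). In old ruxolitinib livers 4 were called with Myc (14.4% of all genes). In young livers 4 were called with Myc and ruxolitinib together (27.5% of all genes). With Myc in old vehicle livers 2 of 20 rose and 3 fell, with the retinoid X receptor Rxrg (0.55) higher and the coactivator Ncoa2 (-0.24) and the hepatocyte nuclear factor Hnf4a (-0.31) lower by edgeR. In old ruxolitinib livers 2 rose and 2 fell, and the fallers were Lpin1 (-1.15), a phosphatidate phosphatase that also acts as a coactivator of PPAR-alpha, and the receptor Ppard (-0.80). In young Myc ruxolitinib livers 1 rose and 3 fell, with Lpin1 again lower (-1.28) together with the deacetylase Sirt1 (-0.38) and the coactivator Ncoa1 (-0.30). With age in Myc ruxolitinib livers, where 33.7% of all genes were called, 1 of 20 rose and 4 fell, Ppard (-1.25) and Hnf4a (-0.24) among them.

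Of the 7 tested genes of ketone body synthesis, use and export, the thiolase Acat1 (0.41) and Bdh2 (0.31) rose with Myc in old vehicle livers. Acat1 (0.26) also rose in young livers with Myc and ruxolitinib together. With Myc in old ruxolitinib livers 0 of 7 were called. With age in Myc ruxolitinib livers 2 rose, Bdh2 (0.47) and the transporter Slc16a7 (0.61), and 2 fell, Acat1 (-0.22) and the transporter Slc16a1 (-0.22).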
